A study of Homo sapiens with 4 samples.

Results

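Long intergenic noncoding RNA genes carry a symbol made of LINC and a number until a gene is named for what it does. The counts table of the series held 878 such symbols among 26364 gene symbols, and the 72 described here were selected on their counts: each had at least 50 in each of the 4 libraries. The libraries came from Ishikawa cells, a human endometrial adenocarcinoma line, that carried the Y537S mutation in ESR1, the gene for estrogen receptor alpha. All 4 libraries shared this genotype, so no comparison with the unmutated receptor is made here. Per the labels there were 2 mutant clones, and each was grown in hormone-deprived medium and then treated for 8 h with 10 nM estradiol (E2) or with its vehicle, 0.1% DMSO. Each of the DMSO and E2 groups therefore held 2 libraries, 1 from each clone. The libraries are called A4 and B212 here by the tags of the deposited columns. The labels number the clones 1 and 2, and which tag belongs to which number cannot be told from them. A clone is the progeny of a single cell, so differences between A4 and B212 are differences between these 2 clones only. Nothing states that the libraries came from repeated cultures, and p-values measure only the spread between these 4 libraries. No clone had a second library with the same treatment. In tests that fit clone and treatment together, the spread is what these leave unexplained, not a spread between repeats.

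A long noncoding RNA is a transcript, usually capped, spliced and polyadenylated like a messenger RNA, that is not known to be translated. Some act in the nucleus on nearby genes or chromatin, and others act in the cytoplasm by binding proteins or other RNAs. Several genes first filed as LINC genes were later found to encode very small proteins and were renamed. Estrogen receptor alpha is a transcription factor that E2 activates, and the Y537S change in its ligand-binding domain is known to give activity without ligand. Estrogen is known to regulate noncoding as well as coding genes in tissues that express the receptor.

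All 72 genes matched the RefSeq gene table, and 21 of them now have another name. RefSeq lists 66 of the 72 as long noncoding RNA genes, 5 as protein coding and 1, LINC01296 (DUXAP9), as a transcribed pseudogene. The protein-coding genes are LINC00116 (MTLN), LINC00493 (SMIM26), LINC00998 (SMIM30), LINC01420 (NBDY) and LINC00094 (BRD3OS). MTLN encodes a small protein of mitochondria, SMIM26 and SMIM30 encode small membrane proteins, and NBDY encodes a small protein that binds the mRNA decapping machinery. Among the noncoding genes, LINC00657 (NORAD) is a cytoplasmic RNA that binds Pumilio proteins, and LINC01578 (CHASERR) lies beside CHD2 and limits its expression.

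Promoter windows of 300 bases, from 250 before to 50 after the annotated start, were found for 54 of the 72 genes in RefSeq (GRCh38.p14). The windows shown are those of the 4 genes that passed the E2 test with the clone as a block, of LINC00839, which with LINC00941 had the largest differences downward between the clones, and of LINC01355 and LINC00472, which had the largest upward. Each is written 5′ to 3′ on the strand of the gene, and capitals mark matches, on either strand, to the motifs named after the sequences.
LINC00998 (SMIM30), chr7:113118505-113118804, minus strand: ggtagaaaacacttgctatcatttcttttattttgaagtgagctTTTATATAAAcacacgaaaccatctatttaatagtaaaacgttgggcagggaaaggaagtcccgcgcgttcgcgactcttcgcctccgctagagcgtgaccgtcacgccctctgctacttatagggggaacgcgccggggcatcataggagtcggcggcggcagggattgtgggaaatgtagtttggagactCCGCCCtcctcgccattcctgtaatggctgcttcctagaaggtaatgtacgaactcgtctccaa
LINC00493 (SMIM26), chr20:18567182-18567481, plus strand: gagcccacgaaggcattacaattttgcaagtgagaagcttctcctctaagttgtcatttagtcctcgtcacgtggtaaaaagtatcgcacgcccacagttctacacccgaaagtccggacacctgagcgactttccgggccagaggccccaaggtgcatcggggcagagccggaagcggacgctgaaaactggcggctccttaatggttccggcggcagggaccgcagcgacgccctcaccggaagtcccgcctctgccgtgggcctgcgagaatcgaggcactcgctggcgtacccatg
LINC00941, chr12:30795431-30795730, plus strand: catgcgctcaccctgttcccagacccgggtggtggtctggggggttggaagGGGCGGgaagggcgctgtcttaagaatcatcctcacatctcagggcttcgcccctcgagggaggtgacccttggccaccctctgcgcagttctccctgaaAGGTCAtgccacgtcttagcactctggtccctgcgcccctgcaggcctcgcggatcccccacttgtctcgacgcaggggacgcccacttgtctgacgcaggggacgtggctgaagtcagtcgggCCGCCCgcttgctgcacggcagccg
LINC00960, chr3:75672141-75672440, plus strand: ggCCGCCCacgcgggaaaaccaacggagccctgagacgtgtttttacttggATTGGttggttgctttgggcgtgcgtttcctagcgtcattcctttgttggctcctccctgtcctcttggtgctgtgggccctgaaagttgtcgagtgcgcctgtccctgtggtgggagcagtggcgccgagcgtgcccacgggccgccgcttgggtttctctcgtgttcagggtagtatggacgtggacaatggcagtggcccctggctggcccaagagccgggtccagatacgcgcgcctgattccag
LINC00839, chr10:42475241-42475540, plus strand: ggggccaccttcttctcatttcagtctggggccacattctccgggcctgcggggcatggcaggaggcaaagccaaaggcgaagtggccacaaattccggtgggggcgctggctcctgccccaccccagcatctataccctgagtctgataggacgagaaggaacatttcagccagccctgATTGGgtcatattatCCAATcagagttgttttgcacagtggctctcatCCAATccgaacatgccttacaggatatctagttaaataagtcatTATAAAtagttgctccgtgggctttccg
LINC00472, chr6:71420696-71420995, minus strand: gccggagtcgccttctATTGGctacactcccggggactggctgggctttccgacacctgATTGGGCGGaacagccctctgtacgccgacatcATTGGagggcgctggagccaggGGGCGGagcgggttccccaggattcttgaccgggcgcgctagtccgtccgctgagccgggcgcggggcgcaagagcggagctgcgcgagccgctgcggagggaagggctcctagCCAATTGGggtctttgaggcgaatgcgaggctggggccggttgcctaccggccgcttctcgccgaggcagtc
LINC01355, chr1:23285469-23285768, minus strand: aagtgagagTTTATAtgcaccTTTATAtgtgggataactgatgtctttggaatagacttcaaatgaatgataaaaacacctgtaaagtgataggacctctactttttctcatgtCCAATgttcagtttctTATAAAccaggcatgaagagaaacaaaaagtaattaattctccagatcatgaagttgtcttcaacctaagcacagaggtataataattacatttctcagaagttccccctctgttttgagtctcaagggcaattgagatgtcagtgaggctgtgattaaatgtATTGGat

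The motifs searched on both strands were the estrogen response element (GGTCA, 3 bases of any kind, then TGACC), its half-site AGGTCA, the AP-1 element TGANTCA, the GC box GGGCGG, the CCAAT box CCAAT and the TATA box TATAAA. None of the 54 member promoters held the full estrogen response element, which was present in 0.057% of all 35116 promoters of the table. The half-site was in 11 of the 54 (20.4%) against 13.8% of all promoters, and LINC00941 is one of the 11. The AP-1 element was in 6 (11.1%) against 7.71%. GC boxes were in 28 (51.9%) against 45% and CCAAT boxes in 21 (38.9%) against 34.6%. TATA boxes were in 11 (20.4%) against 11.5%. A match counts anywhere in the window, so its place is not that of a working element. The TATA matches shown begin at -206 and -202 from the annotated start in SMIM30 and at 23 in LINC00839. In LINC01355 they begin at -241, -229 and -120. In the window of LINC00472 a CCAAT box overlaps a GC box and a pair of CCAAT boxes overlap each other, and in that of SMIM30 a pair of TATA boxes overlap. No match to any of the 6 motifs was found in the window of SMIM26, which says only that these letters are not there.

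The 72 genes spanned a wide range of levels and together held little of the RNA measured. Library totals ran from 71575816 to 85222856 counts, and the members took 0.110% to 0.124% of them, which was 95.4% to 97.0% of all counts on LINC symbols. NORAD alone held 25.3% to 32.4% of the members' counts. Of the other 806 LINC symbols, 776 had fewer than 50 counts in all 4 libraries, 404 of them 0 counts in all 4, and 30 reached 50 counts in some libraries. Of those 30, 12 reached it in both B212 libraries and neither A4 library, and 3 in both A4 libraries and neither B212 library. The minimum thus leaves out LINC genes that are low in 1 clone, and the clone differences given for the members do not cover them.

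At the edge of the rule, LINC00346 had 50, 54, 65 and 57 counts in A4 DMSO, A4 E2, B212 DMSO and B212 E2, the order used for all sets of 4 values here. LINC01061 had 51, 71, 93 and 80 counts, and LINC00999 had 59, 56, 65 and 67. Just outside were LINC00969 with 49, 71, 116 and 121 counts, LINC01604 with 48, 97, 103 and 115, and LINC00880 with 55, 96, 47 and 70. Each of these 3 was kept out by 1 library. The genes left out with the most counts in 1 clone were higher in B212: LINC01132 had 29, 16, 241 and 173 counts, LINC00624 had 29, 46, 171 and 135, LINC01094 had 37, 41, 161 and 135, and LINC00992 had 41, 30, 128 and 102.

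Levels are given as CPM, the counts of a gene relative to the library total, scaled by edgeR's TMM method. NORAD was the most abundant member per library, at 354.1, 287.9, 386.1 and 384.1 CPM. The lowest by mean was LINC00346, at 0.683, 0.658, 0.762 and 0.778 CPM. The median of the members' means was 4.14 CPM, 49 of the 72 had a mean under 10 CPM, and 5 had a mean over 50 CPM. Divided by the length of the longest transcript, which was found for 65 of the 72, the highest mean levels were 159.6 CPM per kb for LINC00674, 66.1 for NORAD, 66.0 for SMIM30, 65.4 for SMIM26 and 32.4 for CHASERR. NORAD, SMIM30 and SMIM26 were therefore at similar levels per length, although NORAD had several times the CPM of either. The lowest was LINC00346, at 0.115 CPM per kb. These values depend on the transcript chosen, and the annotation used for counting was not given in the sources used here.

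**Figure D1:**
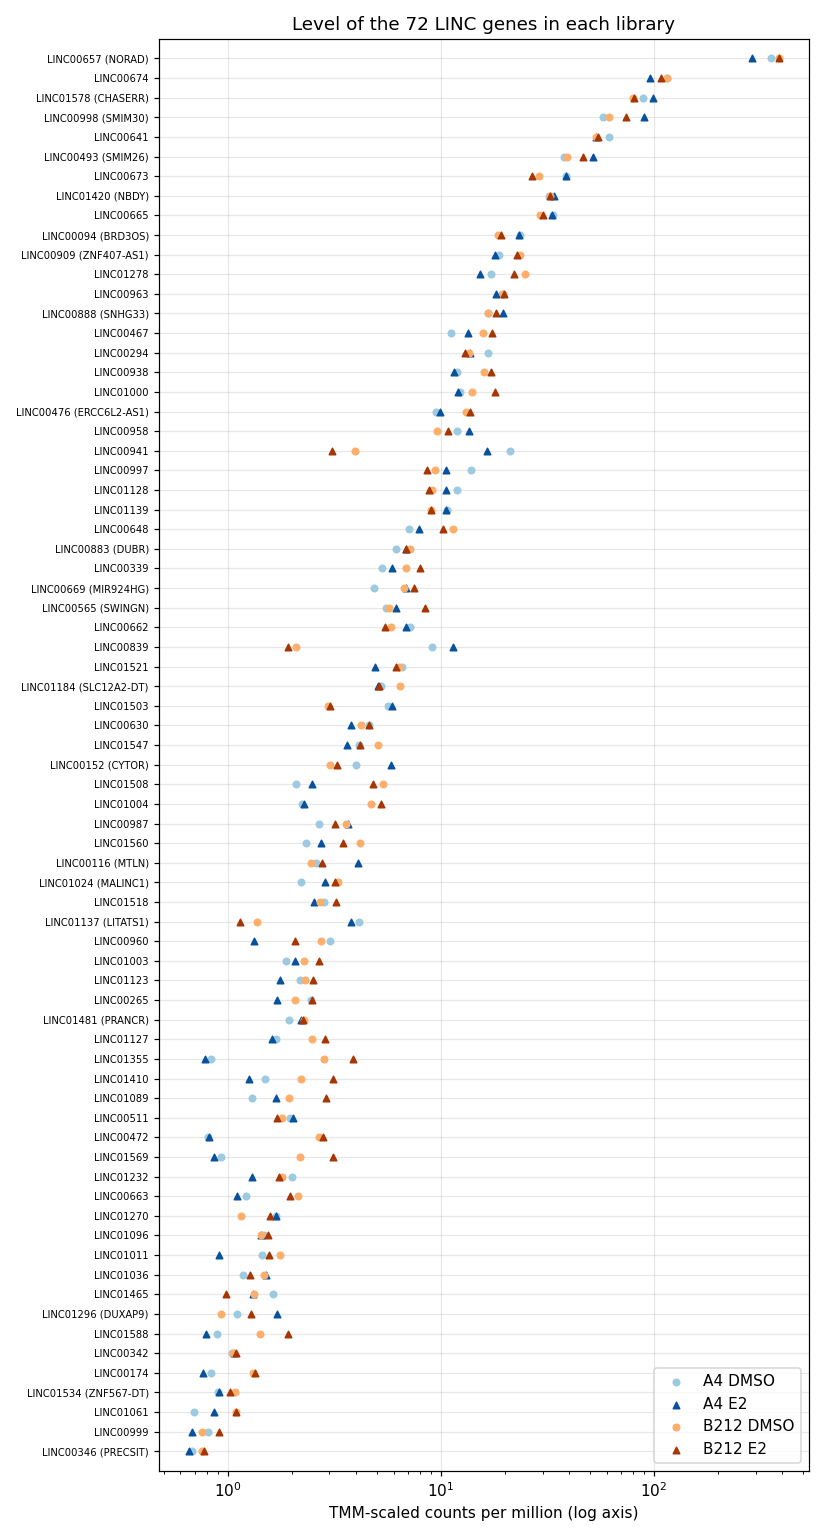
TMM-scaled CPM (log axis) of the 72 LINC genes in each of the 4 libraries, 1 point per library, ordered by mean. NORAD stands highest, at 287.9 to 386.1 CPM, and LINC00941, LINC00839, LINC01137, LINC01355, LINC00472 and LINC01569 show the widest gaps between A4 and B212 points.

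Several members share sequence with other genes, and their counts are uncertain where reads could fall on either. Of the 65 genes with a transcript, 25 shared over 10% of their 32-base words with another gene and 3 shared over 50%. Those 3 were LINC01123 (95%, with LINC01106), LINC01296 (84.3%, with DUXAP10, another copy of the same pseudogene) and NORAD (55.2%). For the genes on which the E2 results turn, the shares were 18.3% for SMIM26, 10.4% for LINC00960, 6.26% for SMIM30 and 4.68% for LINC00941. The strand setting of the counting was not given in the sources used here. Reads of a member and of an overlapping gene on the opposite strand may thus not have been told apart. Among members that overlap a neighbour in RefSeq are LINC00476 (ERCC6L2-AS1, with ERCC6L2), BRD3OS (with BRD3), LINC01560 (with ZNF41) and LINC01089 (with SETD1B). Each of these is among the genes called between the clones below. LINC01481, LINC01534, LINC01270, LINC01547, LINC01096 and NBDY also overlap a neighbour, and none of these was called between the clones.

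The identity of the cells was read from marker lists. All 5 epithelial markers and all 5 endometrial epithelial markers were at 1 CPM or more in every library. Of the fibroblast list 1 of 5 was (COL1A1), with a summed level of 130.2 and 94.2 CPM in A4 and 43.0 and 35.0 CPM in B212. Leukocyte markers summed to 1.87 to 2.98 CPM, with CD3E at 0 and CD68 at 1.26 to 2.06 CPM. Endothelial markers summed to 2.11 to 4.50 CPM, with PECAM1 at 0 and VWF at 2.04 to 4.36 CPM. CD68 and VWF were the only genes of these 2 lists at 1 CPM or more in every library. COL1A1 alone carried nearly all of the fibroblast sum, at 127.8, 92.4, 42.4 and 34.5 CPM. COL1A2 and COL3A1 were at most at 1.15 CPM in any library, and DCN and LUM at most at 0.061 CPM. The higher fibroblast sum in both A4 libraries is thus that of COL1A1, and its part in the clone differences was not tested. ESR1 itself was at 109.9, 97.0, 107.4 and 86.5 CPM.

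The first comparison was between the clones. The widest differences were those of LINC00941, 5.32-fold higher in A4, and LINC00839, also higher in A4, and of LINC01355, 4.14-fold higher in B212, and LINC00472, also higher in B212. In RNA from many cells, fewer cells that express a gene and less RNA per cell cannot be told apart. Of the 72 genes, 34 (47.2%) differed at an adjusted p under 0.05, 22 higher and 12 lower in B212 (edgeR quasi-likelihood test with treatment as a covariate). The same test called 51.0% of all 15599 genes tested, 25.2% higher and 25.8% lower in B212. Among the 12790 genes that had at least 50 counts in each library, as the members do, it called 53.1%, 24.6% higher and 28.5% lower. The share of members called was thus near the background. The difference had one sign with DMSO and with E2 in 57 of the 72 members (79.2%), against 82.5% of all genes tested.

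Sizes were mostly moderate. Of the 34, 13 had an absolute log2 fold change under 0.5 and 13 had one from 0.5 to 1. The other 8 passed 1, 5 higher and 3 lower in B212, against 11.0% of all genes tested (7.09% higher, 3.96% lower) and 5.86% of the genes with at least 50 counts in each library (3.63% higher, 2.23% lower). The median log2 difference, B212 minus A4, was 0.14 over the members, 0.0042 over all genes tested and -0.023 over genes that had 50 counts or more per library. In 47 of the 72 the difference was positive. Both B212 libraries lay above both A4 libraries for 32 members (44.4%) and below them for 17 (23.6%), against 34.7% and 32.8% of all genes tested. Of the 36 members with a mean count in the members' interquartile range, 151.4 to 957.8, 19 were called (52.8%), and of the 2812 genes in that range 56.1% were (35.3% higher, 20.8% lower).

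LINC00941, a long RNA described in several carcinomas, had 21.1, 16.5, 3.97 and 3.10 CPM. Both A4 libraries were several times above both B212 libraries, and the log2 difference was -2.41 ± 0.11 (SE; adjusted p = 2.36e-13). LINC00839 had 9.11, 11.4, 2.10 and 1.91 CPM, with no overlap between the clones, and a log2 difference of -2.34 ± 0.14 (adjusted p = 2.08e-11). LINC01137 (LITATS1), an RNA described as an antagonist of TGF-beta signalling, had 4.14, 3.80, 1.37 and 1.15 CPM and a log2 difference of -1.66 ± 0.16 (adjusted p = 6.29e-08). In all 3 the A4 libraries were high and the B212 libraries low with either treatment. LINC01503 just missed the size of 1, at -0.95 ± 0.13.

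LINC01355 had 0.833, 0.780, 2.84 and 3.89 CPM, low in both A4 libraries, and a log2 difference of 2.05 ± 0.19 (adjusted p = 2.99e-08). LINC00472, which is known from breast tumours as an RNA linked to estrogen receptor status, had 0.806, 0.817, 2.70 and 2.81 CPM and a log2 difference of 1.76 ± 0.19 (adjusted p = 2.22e-07). Its libraries within each clone were nearly equal, whichever the treatment. LINC01569 had 0.929, 0.866, 2.18 and 3.11 CPM and differed by 1.55 ± 0.20 (adjusted p = 2.58e-06). LINC01508 differed by 1.14 ± 0.15, with 2.10, 2.49, 5.34 and 4.80 CPM, and LINC01004 by 1.13 ± 0.14, with 2.23, 2.29, 4.70 and 5.23 CPM. All 5 genes had a mean under 10 CPM, and no A4 library of any of them reached a B212 library.

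**Figure D2:**
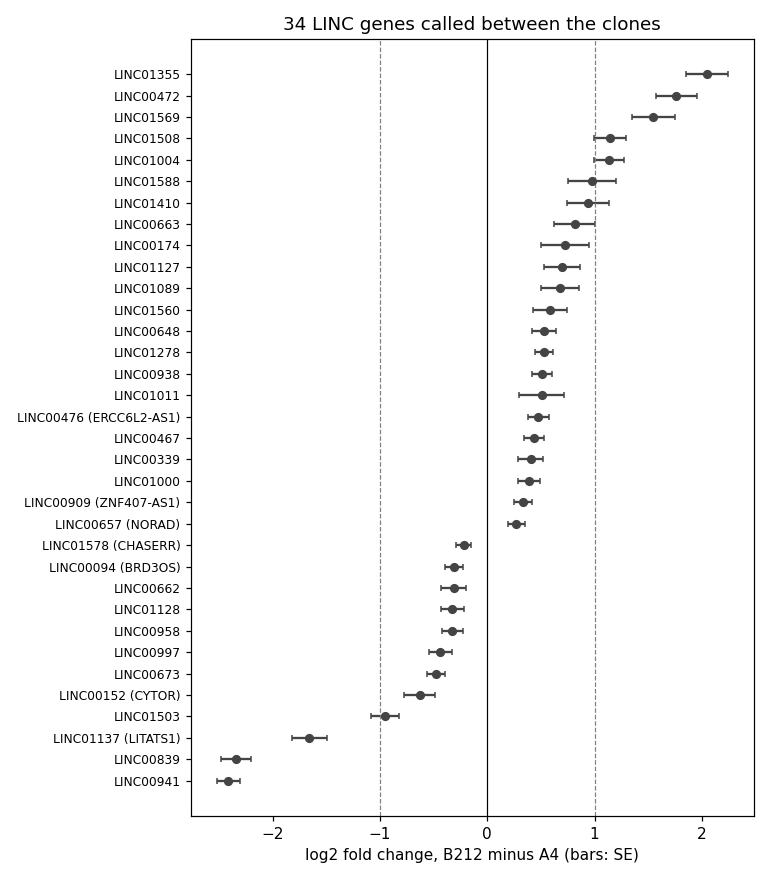
Log2 fold change between the clones, B212 minus A4, with its SE, for the 34 LINC genes at an adjusted p under 0.05. The dashed lines mark -1 and 1; LINC00941, LINC00839 and LINC01137 lie below -1 and 5 genes lie above 1.

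Among the better known members the differences were small. NORAD was higher in B212 by 0.27 ± 0.078 on the log2 scale (adjusted p = 0.00659), and this call is lost when the treatment term is left out (adjusted p = 0.140). CYTOR (LINC00152), an RNA described in many tumours, had 3.99, 5.84, 3.02 and 3.25 CPM and a log2 difference of -0.63 ± 0.14 (adjusted p = 0.00109), a call also lost without that term (adjusted p = 0.0530). CHASERR differed by -0.22 ± 0.071 (adjusted p = 0.0141), and its call is lost without that term, with library size only and with DESeq2. Of the 5 protein-coding members only BRD3OS passed, at -0.31 ± 0.085 (adjusted p = 0.0052), and this call too is lost without the treatment term. SMIM30, SMIM26, NBDY and MTLN were at -0.093, -0.053, -0.034 and -0.33, and none of these 4 passed the test. SMIM30, SMIM26 and NBDY were called once the dependence on length and GC content was taken out and MTLN was called with no filter on low counts (adjusted p = 0.0436).

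The other genes called were named after their values were seen. Of log2 differences between 0.5 and 1, the 11 higher in B212 ran from 0.51 (LINC01011) to 0.98 (LINC01588), with LINC01410 at 0.94, LINC00663 at 0.82, LINC00174 at 0.73, LINC01127 at 0.70, LINC01089 at 0.68, LINC01560 at 0.59, LINC00648 and LINC01278 at 0.53 and LINC00938 at 0.51. LINC01588 had 0.888, 0.792, 1.42 and 1.91 CPM, with both B212 libraries above both A4 libraries. LINC01410 shares 49.8% of its 32-base words with other genes and LINC01089 shares 48.4%, the most with RHOF, so their values are uncertain. The shares of LINC00339 and CYTOR, which were also called, were 42.8% and 29.3%. Among the more abundant of the 11, LINC01278 had 17.1, 15.3, 24.8 and 22.1 CPM and a difference of 0.53 ± 0.086 (adjusted p = 3.67e-05). Of the differences under 0.5, LINC00673, an RNA described in pancreatic cancer, had 38.5, 38.9, 28.9 and 26.7 CPM and a difference of -0.48 ± 0.080 (adjusted p = 5.44e-05). LINC00467 had 11.2, 13.5, 15.8 and 17.5 CPM and a difference of 0.43 ± 0.094 (adjusted p = 6.64e-04). Of the rest, LINC00476 (0.47), LINC00339 (0.40), LINC01000 (0.39) and LINC00909 (0.33) were higher in B212, and LINC00997 (-0.44), LINC00958 (-0.32), LINC01128 (-0.32) and LINC00662 (-0.31) were lower. Genes called thus ranged in level from LINC00174, at 0.833, 0.768, 1.31 and 1.34 CPM, to NORAD. DESeq2 called 23 of the 34, without LINC01128, LINC00339, LINC00958, LINC01089, CHASERR, LINC00663, LINC00662, LINC01127, LINC01011, LINC00174 and LINC01560.

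The count of clone calls changed with the model. Without the treatment term 22 of the 34 members called were called, and with 1 library left out and no treatment term 14 to 28 were, with the lowest, 14, without B212 E2 and 17 without B212 DMSO. With the dependence on GC content and transcript length, fitted as a smooth curve, taken out of each library, 38 were called, 20 higher and 18 lower, a more even split than the 22 and 12 without that step. In that fit 30 of the 34 were still called, NORAD was not, and 3 without a known length were not tested.

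Genes next to the members on the chromosome were read from the RefSeq order. Over 144 pairs of a member and the nearest tested gene on either side, the Spearman correlation of the clone differences was 0.0066 and 49.3% had one sign, against 0.13 and 54.5% over all 15241 adjacent pairs of tested genes. The pairs share libraries and some share a gene, and no test was made. LINC01508 lay between 2 genes that also differed in the same direction, GADD45G, a stress-response gene, at 1.56 and DIRAS2, a small GTPase gene, at 2.98 (adjusted p = 1.15e-07 and 2.40e-10). LINC01137 lay between MRPS15, at -0.47, and ZC3H12A, at -0.76. LINC00839 had CCNYL2 on one side, at -2.68, and ZNF37BP on the other, at 0.51. LINC00941 had TSPAN11, at 1.83, and CAPRIN2, at 0.20, which was not called. Neither neighbour of LINC01355 (HTR1D at 0.097, HNRNPR at -0.13) or of LINC00472 (OGFRL1 at 0.14, RIMS1 at 0.020) was called. LINC01569 lay between SRL, at -0.84, and TFAP4, at -0.45, both opposite in sign to it.

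The second comparison was between E2 and DMSO. With the clone as a block, 4 of the 72 members (5.56%) were called, against 9.56% of all genes tested (6.13% higher, 3.44% lower) and, at matched counts, 5.56% of members against 5.80% of genes. Of the 4, 2 members, SMIM30 and SMIM26, rose and 2, LINC00941 and LINC00960, fell. The rise of SMIM30 was 1.36-fold and the fall of LINC00960 was 1.72-fold. Both rises lose their call when the dependence on transcript length and GC content is taken out (adjusted p = 0.233 for SMIM30 and 0.126 for SMIM26). Both that rose encode small proteins and both that fell are listed as noncoding. Without the block, 0 of the 72 members passed an adjusted p of 0.05 in edgeR's quasi-likelihood test, as did 0 of the 15599 genes tested (0%), and 2 members and 150 genes had an unadjusted p under 0.05. The clone took 86.8% of the summed variance of the members' log2 levels, treatment 8.35% and their interaction 4.83%, and the biological coefficient of variation of the fit fell from 32.2% without the block to 5.99% with it. With the block, 13 members had an unadjusted p under 0.05. Among genes with at least 50 counts in each library 11.3% were called (7.16% higher, 4.10% lower).

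The members have low counts, and this limits which changes could be called. Their median mean count was 326, against 2568 for the genes with at least 50 counts in each library, and the median SE of the log2 change with the block was 0.14 for members, with a range of 0.071 to 0.27, against 0.082. In the members' interquartile range of counts, 2 of 36 members (5.56%) and 5.80% of the 2812 genes (3.41% higher, 2.38% lower) were called. The median log2 change of the members was 0.030 with the block and 0.034 without it, against -0.0081 over all genes tested in each fit.

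SMIM30 had 57.4, 89.7, 61.8 and 73.6 CPM. Both E2 libraries lay above both DMSO libraries, and the rise was 0.64 on the log2 scale in A4 and 0.25 in B212. With the block the change was 0.45 ± 0.084 (SE; adjusted p = 0.00327), and without it 0.45 ± 0.15 (unadjusted p = 0.0339, adjusted p = 0.9999). SMIM26 had 37.7, 51.8, 39.1 and 46.6 CPM, again with no overlap, and a change of 0.36 ± 0.080 (adjusted p = 0.00939), at 0.46 in A4 and 0.25 in B212. MTLN had 2.61, 4.10, 2.47 and 2.78 CPM, with the E2 library above the DMSO library in each clone, but its change of 0.42 ± 0.16 did not pass (adjusted p = 0.100). NBDY, at 32.3, 34.1, 32.5 and 32.4 CPM, had a change of 0.038 (adjusted p = 0.810), and BRD3OS one of 0.014 (adjusted p = 0.939).

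LINC00960 had 3.02, 1.33, 2.75 and 2.07 CPM and fell by 0.78 on the log2 scale with the block (SE 0.19; adjusted p = 0.0136). Both DMSO libraries lay above both E2 libraries, and the change was -1.17 in A4 and -0.40 in B212. LINC00941 fell within each clone by the same amount, -0.36 in A4 and -0.36 in B212, and with the block by 0.36 (SE 0.11; adjusted p = 0.0377). Across the clones its E2 and DMSO levels overlap. This call was not made with DESeq2 size factors (adjusted p = 0.0592) or with limma-voom (adjusted p = 0.0527).

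**Figure D3:**
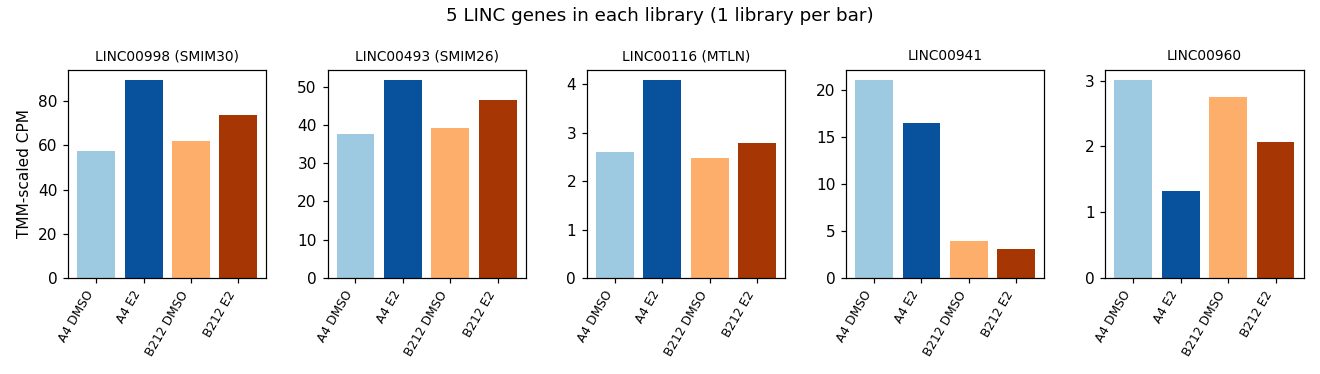
TMM-scaled CPM of SMIM30, SMIM26, MTLN, LINC00941 and LINC00960 in each of the 4 libraries, 1 library per bar. For SMIM30 and SMIM26 both E2 bars stand above both DMSO bars, for LINC00960 both stand below, and for LINC00941 the step between the clones is wider than that between treatments.

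The E2 changes also moved with transcript length and, over the whole table, with GC content. Short transcripts had higher E2 changes over the whole table (Spearman correlation with length -0.29 over 15091 genes, and -0.30 in A4 and -0.19 in B212), and over the 65 members with a length it was -0.19 (-0.31 in A4, -0.043 in B212). The correlation with GC content was -0.28 over the 15091 genes and -0.023 over the 65 members. These are correlations across genes that share libraries. SMIM26 and SMIM30 have transcripts of 670 and 1070 bases, against a median of 2546 for the members and 3273 for all genes tested. With that dependence, and the one on GC content, taken out of each library, their changes with the block were 0.20 ± 0.069 (adjusted p = 0.126) and 0.15 ± 0.064 (adjusted p = 0.233), and both calls were lost. LINC00941, with 16489 bases, and LINC00960, with 2126, kept theirs, at -0.39 (adjusted p = 0.0318) and -0.86 (adjusted p = 0.0127). LINC00674, which did not pass with the block alone (-0.18 ± 0.071, adjusted p = 0.112), was called lower in that fit, so that it called 3 members lower and 0 higher.

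**Figure D4:**
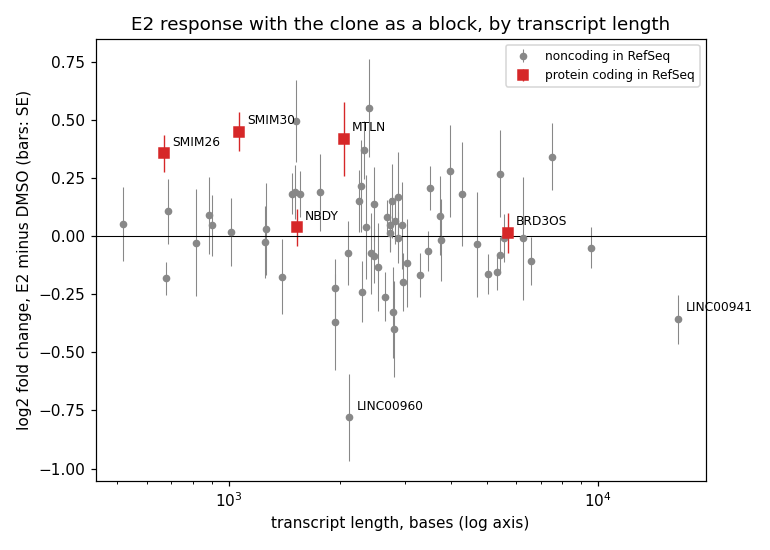
Log2 change with E2, with the clone as a block (bars: SE), against transcript length (log axis) for the 65 LINC genes with a known length. SMIM26 and SMIM30, with 670 and 1070 bases, lie among the shorter transcripts at 0.36 and 0.45, and LINC00941 is the longest at -0.36.

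The clones often differed in the direction of small E2 changes. In 21 members the E2 library was above the DMSO library in both clones, in 19 it was below in both, and in 32 the clones had opposite signs. One sign in both was thus seen in 55.6% of the members, against 70.1% of all genes tested and 73.3% of the genes with at least 50 counts in each library. Across the 72 members the log2 changes in A4 and B212 had a Pearson correlation of 0.29 and a Spearman correlation of 0.23, against 0.28 and 0.43 over all genes tested and 0.50 and 0.56 over genes that had 50 counts or more per library. These are descriptions across genes within 4 libraries, and the lower counts of the members were not matched here. The E2 libraries both lay above the DMSO libraries for 8 members (11.1%) and below them for 6 (8.33%), against 13.2% and 11.8% of all genes tested.

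**Figure D5:**
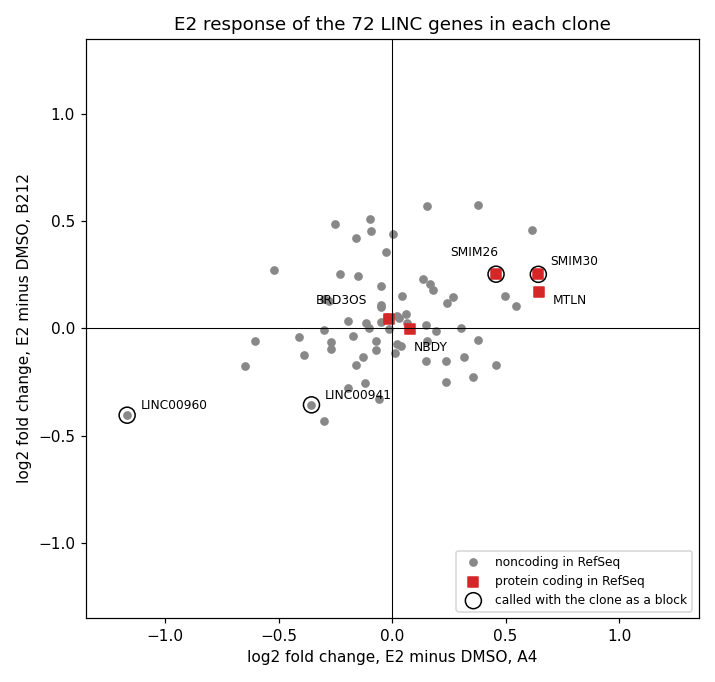
Log2 change with E2 in A4 (x axis) and in B212 (y axis) for the 72 LINC genes, with protein-coding members as squares and the 4 called with the clone as a block circled. SMIM30 and SMIM26 lie in the upper right, LINC00960 and LINC00941 in the lower left, and 32 genes lie in the quadrants of opposite sign.

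By role, 2 of the 5 protein-coding members rose and 0 fell, and of the 66 members listed as long noncoding RNA 0 rose and 2 fell, beside 6.13% higher and 3.44% lower over all genes tested. With the dependence on length and GC content taken out, 0 of the 5 were called. The difference between the classes was not tested. LINC01296 (DUXAP9), the pseudogene, had 1.11, 1.71, 0.926 and 1.28 CPM and the highest log2 change of the 72, 0.55 ± 0.21, which did not pass (adjusted p = 0.104). LINC01465 had a change of -0.37 ± 0.21 (adjusted p = 0.275). NORAD was at -0.15 (adjusted p = 0.227), with -0.30 in A4 and -0.0074 in B212, and CYTOR was at 0.34 (adjusted p = 0.139).

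A pair of LINC genes is linked to estrogen receptor alpha in general knowledge. LINC00472 had a change of 0.046 ± 0.19 with the block (adjusted p = 0.908). LINC01016, an estrogen-responsive RNA of breast cancer cells, missed the minimum, with 51, 121, 26 and 31 counts. It was higher with E2 in both clones, by 1.06 in A4 and 0.44 in B212, and the change of 0.86 ± 0.29 did not pass (adjusted p = 0.0635), while its level was lower in B212 by 1.53 on the log2 scale (log2 difference -1.53 ± 0.29, adjusted p = 1.82e-04). For reference, PGR, the progesterone receptor gene and a known estrogen target, changed by 0.90 (adjusted p = 8.55e-04) and GREB1, another, by 0.48 (adjusted p = 0.0102) with the block. PGR changed by 0.48 in A4 and 1.47 in B212, and GREB1 by 0.11 in A4 and 0.87 in B212. With the block in DESeq2 neither was called (adjusted p = 0.212 and 0.450), and GREB1 was not with edgeR on DESeq2 size factors either (adjusted p = 0.0582). ESR1 fell with E2 by 0.25 with the block (adjusted p = 0.0330). That call was lost with DESeq2 (adjusted p = 0.0856), with edgeR on DESeq2 size factors (adjusted p = 0.0565) and with length and GC content removed (adjusted p = 0.158). The log2 difference between the clones was -2.67 for PGR and -0.82 for GREB1, both called, and -0.099 for ESR1, which was not (adjusted p = 0.252). The clone call of GREB1 was lost without the treatment term (adjusted p = 0.0583) and with DESeq2 (adjusted p = 0.0621).

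Long noncoding RNA genes with other kinds of names were set beside the members. Of 37 listed, 35 were in the table and 28 were tested. With the block 11 of the 28 (39.3%) rose with E2 and 0 fell, with a median log2 change of 0.22, against 6.13% higher over all genes tested and a member median of 0.030. The 11 were MALAT1, a nuclear RNA (0.57, adjusted p = 9.18e-04), JPX (0.57), GAS5 and SNHG1, SNHG5, SNHG12, SNHG15 and ZFAS1, which host small nucleolar RNAs (0.51, 0.40, 0.47, 0.48, 0.34 and 0.49), MIR17HG, host of a microRNA cluster (0.51), DLEU1 (0.40) and DANCR (0.24). The other SNHG genes tested, also hosts of small nucleolar RNAs, were not called. They were SNHG7 (-0.012, adjusted p = 0.95), SNHG8 (0.21, adjusted p = 0.0857) and SNHG16 (0.0050, adjusted p = 0.974). The list was chosen by name and holds several such hosts, so its share called does not stand for long noncoding RNA genes at large. The difference between the listed genes and the members was not tested, and the members' counts are lower. The 11 calls come from the fit that keeps the dependence on transcript length and GC content. Whether they remain once it is taken out is not given here. Between the clones 14 of the 28 were called, 8 higher and 6 lower in B212.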

How the data were processed

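RNA was measured in 4 libraries of ESR1 Y537S Ishikawa cells, 2 with DMSO and 2 with E2. Per the labels' protocols, poly(A)-selected stranded libraries were made from 500 ng of RNA each. The deposited values were raw counts of reads per gene symbol. The submitters' processing notes name HISAT2, SAMtools, featureCounts, DESeq2 and hg19. Versions, annotation and strand setting were not given in the sources used here. The table held 4 other columns of per-sample values that matched no sample, and they were not used.

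Members were the LINC symbols with at least 50 counts in each library. The members and the gene lists were chosen with earlier results of these data known. Named genes were the members called between the clones with a log2 difference of 1 or more in either direction, those past the threshold for E2 with the block, the 3 in each direction with the smallest p without it, the 5 highest per kb, members with well-known later names, the genes at the edge of the minimum, LINC01016, LINC00472, ESR1, PGR and GREB1.

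Genes were kept by filterByExpr (minimum count 10) in edgeR 4.0.16 with R 4.3.3, which left 15599 genes and all 72 members, and scaled by TMM. Tests were edgeR's quasi-likelihood tests on all kept genes, two-sided, with Benjamini-Hochberg adjustment over all of them and a threshold of 0.05. E2 was tested without a block as the main fit and with the clone as a block. The clone test had treatment as a covariate. Log2 levels had a prior count of 2. Same-tag libraries deviated together from their group means (Pearson r = 0.871 over all genes, 0.902 over the members), and the pairing comes from the tags in the column names. Totals per library bound the precision of low genes, and with 1 library per clone and treatment no difference in E2 response between the clones could be tested.

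Alternatives were DESeq2 1.42.0, limma-voom (limma 3.58.1), other scaling, filters, minimum counts and thresholds, and leaving out each library. Taking out the dependence on GC content and transcript length, a smooth curve per library (mgcv 1.9.3), was chosen after seeing the data. Lengths and shared words came from GENCODE 29 transcripts, found for 90.3% of the members. Names, gene order and promoters came from RefSeq (GRCh38.p14), whose build differs from that of the counts. Genes were matched to it by symbol, and neighbours and overlaps rest on its coordinates. The scripts were tested on simulated data. Figures were drawn with matplotlib 3.10.9 in Python 3.11.15.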

Additional observations from a re-analysis of the deposited data

Results flagged for a closer look

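In 32 of the 72 members the E2 change had opposite signs in the clones. Each clone had 1 library per treatment, so none of these differences was tested. Of the genes named for their clone difference, LINC01355 had a log2 change of -0.092 with A4 and 0.45 with B212, so that B212 minus A4 was 0.54. LINC01569 had -0.099 and 0.51, a difference of 0.61. LINC00839 had 0.32 and -0.13, a difference of -0.45, and LINC01508 had 0.24 and -0.15, a difference of -0.39. LINC01355 and LINC01569 were higher in B212 than in A4 with either treatment, and LINC00839 was higher in A4. Among the protein-coding members, NBDY (LINC01420) had 0.080 and -0.0043, a difference of -0.084, and BRD3OS (LINC00094) had -0.013 and 0.042, a difference of 0.055.

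In 19 of the 32 the change was negative in A4 and positive in B212. Besides those above, the differences on the log2 scale were 0.79 for LINC00265, 0.74 for LINC01410, 0.58 for LINC01588, 0.49 for LINC00999, 0.44 for LINC01123, 0.41 for LINC00630, 0.39 for LINC01518 and 0.38 for LINC01000. They were 0.25 for LINC01127, 0.23 for LINC00641, 0.16 for LINC01096, 0.15 for LINC00938, 0.14 for LINC00174, 0.10 for LINC00963, 0.080 for LINC00346 and 0.076 for LINC00665. In the other 13 the signs were the reverse, with differences of -0.63 for LINC00987, -0.58 for LINC01036, -0.49 for LINC01560, -0.43 for LINC01024, -0.30 for LINC00648, -0.22 for LINC00883, -0.20 for LINC01481, -0.13 for LINC00673, -0.12 for LINC00511 and -0.094 for LINC01534. None of the 32 was called for E2 with the clone as a block. The median change of the 72 members also had opposite signs, with -0.020 in A4 against 0.025 in B212 and thus a difference of 0.045.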

How the results depend on the processing

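The E2 calls changed with the pairing of libraries by clone. Without the block 0 members were called under every alternative run, and with the replicate block 4 were. With the block and DESeq2 size factors 3 were called, with library size only 4, with no filter on low counts 5 (LINC00565 added), with DESeq2 2 (2 of the 4 had no adjusted p), with limma-voom 3, at a threshold of 0.01 2, and with length and GC content removed 3. With a minimum of 20, of 100 or of 50 on average, 4 of 109, 4 of 54 and 4 of 89 genes were called with the block. The median E2 change was -0.043 with the block and the trend removed, and -0.10 to 0.086 with 1 library left out. Between the clones 22 members were called without the treatment term, 8 when a log2 difference of 1 or more in either direction was also required, and 14 to 28 with 1 library left out; the median was then 0.061 to 0.17. Without a block, leaving out a library also unbalances the clones, and the E2 change then ran from -2.02 to 1.31 for LINC00941, -1.10 to 1.15 for LINC00472, -0.36 to 0.052 for NORAD, -0.11 to 0.74 for CYTOR, -0.0023 to 0.077 for NBDY, -0.24 to 1.64 for LINC01016, -0.87 to 2.97 for PGR and -0.11 to 1.11 for GREB1. The clone difference ran from -0.65 to 0.0073 for MTLN, -0.28 to 0.18 for SMIM26, -0.42 to 0.23 for SMIM30, -0.083 to 0.0035 for NBDY and -0.27 to 0.053 for ESR1. Reversed were also the E2 change of NBDY, at -0.22 with the block and the trend removed, and, with library size only, the clone differences of SMIM26 (0.015) and NBDY (0.033). The cause was not tested. Low counts limit the precision of most members.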
